A study of Arabidopsis thaliana with 9 samples.

Results

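CIPK20, CIPK17 and CIPK5 are 3 Arabidopsis genes for CBL-interacting protein kinases. They were selected on measured values, because all 3 stand in the study's own list of genes that differ between 2 lines with disrupted phytochromes, and they are 3 of the 8667 named genes with a probe set kept here. That list was made on these same arrays, from a test across the 3 lines and a change of at least 2-fold between CAB3::pBVR2 and 35S::pBVR3. The differences of the 3 genes between lines are therefore a description of what was chosen, and no test of them is given. The 3 genes did not move alike. CIPK20 was highest in wild type and lowest in CAB3::pBVR2, whereas CIPK17 and CIPK5 were lowest in wild type and highest in CAB3::pBVR2.

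The samples were whole seedlings of Arabidopsis thaliana, ecotype No-0, at an age of 7 days, with 3 Affymetrix ATH1 arrays for each of 3 lines. The lines were the transgenic 35S::pBVR3 and CAB3::pBVR2 and the untransformed wild type, No-0 WT. Seeds of each line had received 5 min of red light and 3 days of cold at 4 °C in darkness, and seedlings of each line grew under continuous far-red light (FRc), so no group stood in darkness or white light. Both transgenic lines carry a plastid-targeted biliverdin reductase, an enzyme that removes the precursor of the phytochrome chromophore. In 35S::pBVR3 a constitutive viral promoter drives it, and in CAB3::pBVR2 the promoter of a chlorophyll a/b-binding protein gene, which is active mainly in mesophyll. Each transgene is represented by 1 line, each array by RNA from a pool of seedlings, and no probe set for the transgene was analysed here.

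Calcium serves plants as a second messenger for light, salt, cold and the hormone abscisic acid (ABA). A rise in calcium is bound by calcineurin B-like proteins (CBLs), small sensors with EF hands, which then dock on the NAF motif of a CIPK and release its kinase domain from autoinhibition. The best known pair is CBL4 (SOS3) with CIPK24 (SOS2), which activates a sodium transporter under salt stress. CIPKs are the third group of the SnRK kinases and are therefore also called SnRK3. CIPK20, also known as PKS18 and SnRK3.6, has been tied to ABA responses. Each of the genes was read by 1 probe set: 248910_at for CIPK20 (AT5G45820), 262244_at for CIPK17 (AT1G48260) and 250408_at for CIPK5 (AT5G10930). All 3 probe set names end in the plain suffix that Affymetrix gives to sets designed for a single gene. CIPK20 and CIPK5 lie on chromosome 5 and CIPK17 on chromosome 1. The positions of the probes within the genes were not among the sources read here.

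The signals below are linear and are given after each array was shifted to a common 75th percentile of 562.5. They have no absolute unit, and the level of one probe set cannot be set against that of another. The brightest of 27 bacterial control probe sets served as the background of an array, and it lay between 27.0 and 48.0. In RNA of whole seedlings, fewer cells that express a gene and less RNA per cell cannot be told apart.

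CIPK20 was lower in both transgenic lines than in wild type. In No-0 WT its signal was 1196.8, 1383.1 and 1305.5 on replicates 1, 2 and 3. In 35S::pBVR3 it was 657.5, 555.6 and 682.9. In CAB3::pBVR2 it was 103.1, 61.6 and 97.9. Every 35S::pBVR3 array thus lay below every wild-type array, and every CAB3::pBVR2 array below every 35S::pBVR3 array. The means were 1295 ± 93.6 (SD, n = 3) in wild type, 632 ± 67.4 in 35S::pBVR3 and 87.5 ± 22.6 in CAB3::pBVR2. On the log2 scale CIPK20 differed by -2.88 ± 0.21 (SE) between CAB3::pBVR2 and 35S::pBVR3, or 7.38-fold, and by -1.04 ± 0.21 between 35S::pBVR3 and No-0 WT, or 2.05-fold. Between CAB3::pBVR2 and No-0 WT the difference came to -3.92 ± 0.21, or 15.2-fold. The CAB3::pBVR2 arrays were 2.15 to 3.25 times the background, against 43.76 to 44.97 times in wild type, so the size of the difference rests on signals near the low end of the scale. With 32 added to every signal it was -2.49 between the transgenic lines and -3.49 between CAB3::pBVR2 and No-0 WT.

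CIPK17 went the opposite way. Its signal was 63.5, 70.0 and 95.6 in wild type, 231.3, 135.7 and 264.1 in 35S::pBVR3, and 631.7, 500.7 and 509.6 in CAB3::pBVR2, in the order of replicates 1 to 3. The 3 lines again did not overlap, and replicate 2 was the lowest array in both transgenic lines. The means were 76.4 ± 16.9 (SD, n = 3), 210.4 ± 66.7 and 547 ± 73.2. Both steps were of the same size, with a log2 difference of 1.43 ± 0.27 (SE) between 35S::pBVR3 and No-0 WT and again of 1.43 ± 0.27 between CAB3::pBVR2 and 35S::pBVR3, each 2.69-fold. From No-0 WT to CAB3::pBVR2 the difference was 2.86 ± 0.27, or 7.24-fold. Here wild type was the dim group, at 2.22 to 3.29 times the background, and with 32 added to every signal the difference from wild type to CAB3::pBVR2 was 2.42.

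CIPK5 had the same order of lines as CIPK17, with more spread. In No-0 WT its signal was 84.9, 88.9 and 49.2 on replicates 1, 2 and 3. In 35S::pBVR3 it was 149.6, 132.9 and 123.2, and in CAB3::pBVR2 it was 309.6, 467.0 and 168.7. The lines did not overlap, but replicate 3 of CAB3::pBVR2 came within 0.17 on the log2 scale of replicate 1 of 35S::pBVR3. The means were 74.3 ± 21.9 (SD, n = 3), 135 ± 13.3 and 315 ± 149. The SD in CAB3::pBVR2 was 47.4% of the mean, against 13.4% for CIPK17 and 25.9% for CIPK20 in that line. The log2 difference was 1.11 ± 0.36 (SE) between CAB3::pBVR2 and 35S::pBVR3, or 2.15-fold, which puts CIPK5 just inside the 2-fold limit of the study's list. No CIPK gene just outside that limit was named here. Without replicate 2 of CAB3::pBVR2 the fold between these lines was 1.69, and without replicate 3 of CAB3::pBVR2 it was 2.83. The difference was 0.91 ± 0.36 between 35S::pBVR3 and No-0 WT and 2.01 ± 0.36 between CAB3::pBVR2 and No-0 WT, or 4.04-fold.

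**Figure D1:**
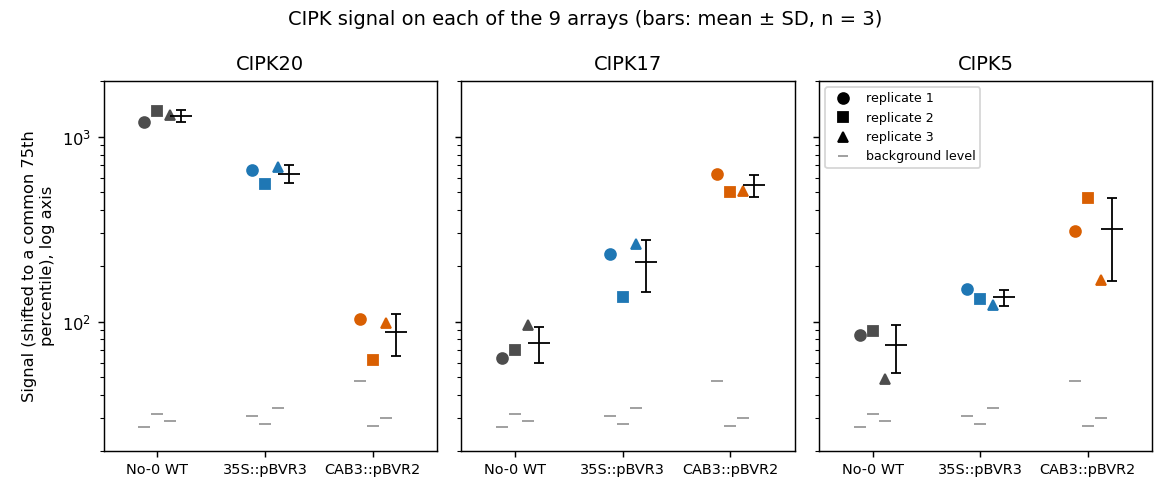
Shifted signal of CIPK20, CIPK17 and CIPK5 (log axis) on each of 9 arrays, by line, with marker shape for the replicate number, black bars for the mean ± SD of 3 arrays and grey dashes for the background of each array. CIPK20 steps down from No-0 WT to CAB3::pBVR2, CIPK17 and CIPK5 step up, and the CIPK5 arrays of CAB3::pBVR2 spread from 168.7 to 467.0.

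The size of the steps differed among the 3 genes. Of the whole log2 difference between No-0 WT and CAB3::pBVR2, 35S::pBVR3 had covered 26.5% for CIPK20 and 45.1% for CIPK5, and for CIPK17 both steps were equal. For CIPK20 most of the difference lay between the 2 transgenic lines, while those of CIPK17 and CIPK5 were divided about evenly. As the lines did not overlap for any of the 3 genes, arrays of the same replicate number could only give the same direction. For CIPK20 the log2 difference between the CAB3::pBVR2 and the 35S::pBVR3 array was -2.67, -3.17 and -2.8 for replicates 1, 2 and 3. For CIPK17 it was 1.45, 1.88 and 0.95, and for CIPK5 it was 1.05, 1.81 and 0.45.

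An order of the 3 lines without overlap is not rare in these data. Of all 15436 kept probe sets, 9.17% had No-0 WT highest, 35S::pBVR3 in the middle and CAB3::pBVR2 lowest with no overlap, as CIPK20 had, and 4.09% had the reverse order, as CIPK17 and CIPK5 had. Between CAB3::pBVR2 and 35S::pBVR3 alone, the arrays did not overlap for 15.9% of probe sets that were lower and for 11.5% that were higher. Between 35S::pBVR3 and No-0 WT these shares were 19.1% and 14.1%, and between CAB3::pBVR2 and No-0 WT they were 25.8% and 24.0%. The choice of the 3 genes used these contrasts, so nothing is read from their place among these shares. CIPK20 had the 27th lowest difference of all kept probe sets between CAB3::pBVR2 and 35S::pBVR3. CIPK17 had the 105th highest and CIPK5 the 292nd highest. Between 35S::pBVR3 and No-0 WT, CIPK20 ranked 222nd from the bottom, CIPK17 248th from the top and CIPK5 804th.

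**Figure D2:**
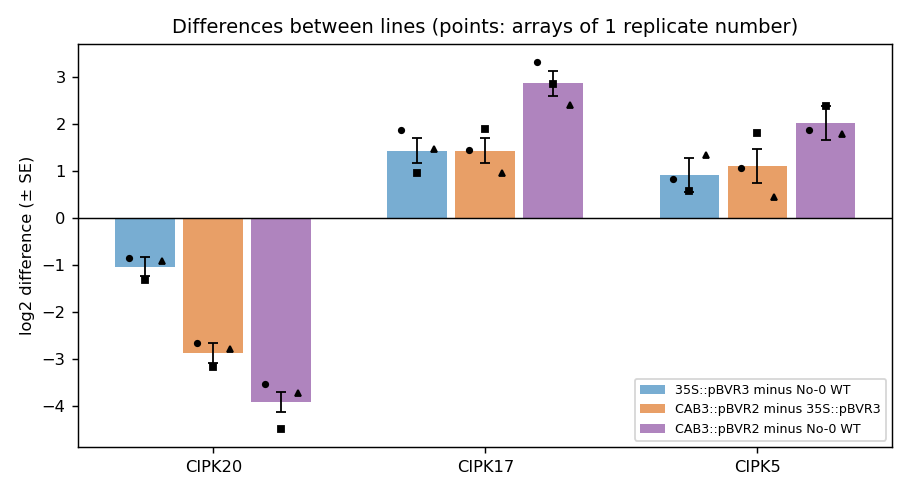
Log2 differences of CIPK20, CIPK17 and CIPK5 for the 3 pairs of lines (bars, with the SE of the limma fit), and the difference between arrays of one replicate number (points, circle, square and triangle for replicates 1, 2 and 3). All points of CIPK20 lie below 0 and all points of CIPK17 and CIPK5 above it, as must be where the lines do not overlap.

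Some signs of library quality also differed between the lines. The ratio of 3′ to 5′ signal of the GAPDH control, which rises when RNA is degraded or amplified from shorter pieces, was 0.416 to 0.508 on the log2 scale in No-0 WT, 0.443 to 0.804 in 35S::pBVR3 and 0.56 to 1.04 in CAB3::pBVR2. The signal of the 25S ribosomal RNA control was 1302 to 8413 in wild type, 559.6 to 6649 in 35S::pBVR3 and 226.7 to 724.5 in CAB3::pBVR2. Neither of these overlapped between No-0 WT and CAB3::pBVR2, and their part in the differences of the 3 genes was not tested. The same log2 ratio for the actin control overlapped between all lines, at 0.257 to 1.383 in wild type, 0.148 to 0.604 in 35S::pBVR3 and 0.284 to 0.848 in CAB3::pBVR2, with its highest value in wild type. UBC21, a ubiquitin-conjugating enzyme gene in use as a reference, was 2644 ± 170.0 (SD, n = 3), 2687 ± 206 and 2402 ± 239 in wild type, 35S::pBVR3 and CAB3::pBVR2. Its difference between the transgenic lines was -0.16 ± 0.14 (SE), which did not pass the test (adjusted p = 0.556 in limma).

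The partners of CIPKs could not be described as a family. The platform table used here names none of the 26 CIPK genes, the 10 CBL genes, or 34 calcium-dependent protein kinases (CPKs) and 12 SnRK1 and SnRK2 kinases. The names of the 3 CIPK genes come from the study's list, which holds no CBL. Of 21 targets and regulators of CIPKs, the study's list names only ABI2, a protein phosphatase of the ABA pathway that is known to bind several CIPKs. ABI2 was 88.3 ± 22.4 (SD, n = 3) in wild type, 185 ± 49.7 in 35S::pBVR3 and 471 ± 238 in CAB3::pBVR2. Its log2 differences were 1.07 ± 0.35 (SE) between 35S::pBVR3 and No-0 WT and 1.27 ± 0.35 between the transgenic lines, the same order of lines as for CIPK17 and CIPK5. ABI2 was chosen in the same way as the CIPK genes, so its values are a description too.

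Among protein kinases, the study's list held 20 probe sets that were kept here. From 35S::pBVR3 to CAB3::pBVR2, 16 of them had a negative log2 difference and 4 a positive one, and CIPK17 and CIPK5 were 2 of those 4. The whole list was divided in nearly the same way, with 554 of its 698 kept probe sets negative and 144 positive, so nothing particular to kinases is read from the split. The remaining 2 were SNRK2.5, a kinase of the osmotic stress and ABA group, and CPK32, a kinase that binds calcium through its own EF hands. SNRK2.5 was 84.1 ± 22.9 (SD, n = 3) in wild type, 236 ± 106 in 35S::pBVR3 and 459 ± 166 in CAB3::pBVR2, and the arrays of the transgenic lines overlapped. CPK32 was 421 ± 13.6, 631 ± 126 and 1523 ± 831. All 4 of these kinases had No-0 WT as their lowest line. CRK21, CRK18 and CRK22, which are cysteine-rich receptor-like kinases, and the probe set shared by At4g04540 and At4g04570 had 0 of 3 CAB3::pBVR2 arrays above background, so their differences have no exact size and no place in an order. Among the other kinases found by this search, CIPK20 had the most negative difference. The list was made by a fold limit in this contrast, so that sizes under 2-fold could not appear in it.

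**Figure D3:**
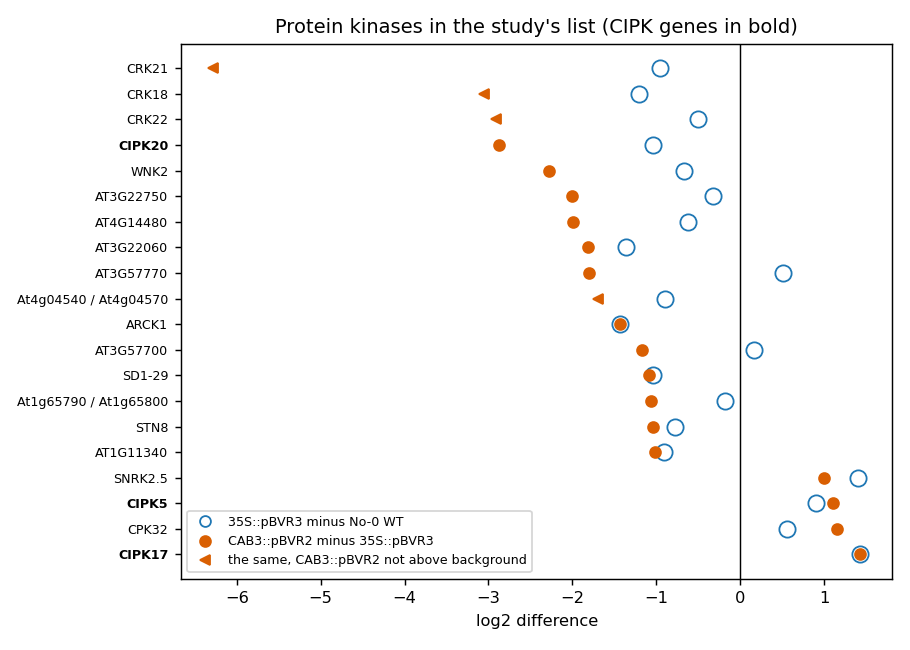
Log2 differences of the 20 kept probe sets for protein kinases found by words in the descriptions of the study's list. Filled points are CAB3::pBVR2 minus 35S::pBVR3, open points 35S::pBVR3 minus No-0 WT, and triangles mark where no CAB3::pBVR2 array was above background. CIPK17, CPK32, CIPK5 and SNRK2.5 lie to the right of 0 in both contrasts, and CIPK20, with -2.88 and -1.04, lies to the left in both.

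Other genes of calcium signalling were found by words in their RefSeq names, a choice that used no values but was made after the naming of the probe sets had been seen. It gave 32 genes, of which 21 had a kept probe set: 7 of 8 calmodulin-like proteins (CMLs), which bind calcium with EF hands, 11 of 15 IQ-domain proteins (IQDs), which bind calmodulin, 2 of 8 glutamate receptor-like channels (GLRs), and CaS, a calcium-binding protein of the thylakoid membrane. Between CAB3::pBVR2 and 35S::pBVR3, 1 of 21 rose and 2 fell by limma's adjusted p, where 1.74% of all kept probe sets rose and 6.69% fell. Between 35S::pBVR3 and No-0 WT 0 rose and 1 fell by limma's adjusted p, against 4.25% and 5.29% of all. At limma's unadjusted p under 0.05, 2 rose and 2 fell in this contrast, and the share over all probe sets was not taken. Between CAB3::pBVR2 and No-0 WT, 3 rose and 6 fell, against 16.7% and 20.2% of all. The median log2 differences over the 21 were 0.05, -0.27 and -0.18, and over all kept probe sets 0.03, -0.03 and 0.02. With the replicate number as a block, 1 calcium gene rose and 2 fell between 35S::pBVR3 and No-0 WT, while of all probe sets 1167 rose and 1323 fell there (656 and 817 without it) and 637 rose between the transgenic lines (268 without it). CaS and IQD24, the 2 genes that fell between the transgenic lines, are also in the study's list, so their calls are not independent of it.

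CaS fell in the order of CIPK20. Its signal was 3114.2, 3537.8 and 2675.4 in No-0 WT, 1301.3, 1404.0 and 1226.6 in 35S::pBVR3, and 271.3, 329.2 and 310.6 in CAB3::pBVR2. The lines did not overlap. The log2 differences were -1.24 ± 0.16 (SE) between 35S::pBVR3 and No-0 WT and -2.11 ± 0.16 between the transgenic lines. IQD24 fell as well, from 287.3, 283.2 and 230.0 in No-0 WT through 143.9, 221.3 and 217.6 in 35S::pBVR3 to 64.0, 68.4 and 104.6 in CAB3::pBVR2, with a log2 difference of -1.31 ± 0.24 (SE) between the transgenic lines. When each probe set was taken on its own, without limma's shared spread (the plain test of the 2 lines), the differences were unchanged, but IQD24 lost its call between the transgenic lines (adjusted p = 0.141) and CaS its call between 35S::pBVR3 and No-0 WT (adjusted p = 0.0531).

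IQD22 was the gene of this group that rose between the transgenic lines. Its signal was 332.0, 396.6 and 327.4 in No-0 WT, 465.3, 549.7 and 460.2 in 35S::pBVR3, and 851.2, 1097.3 and 861.6 in CAB3::pBVR2. The lines did not overlap, in the order of CIPK17 and CIPK5. Its log2 difference was 0.92 ± 0.17 (SE) between the transgenic lines (adjusted p = 0.00952 in limma) and 1.41 ± 0.17 between CAB3::pBVR2 and No-0 WT (adjusted p = 0.000244). The call between the transgenic lines was lost with the plain test of the 2 lines, at the same difference (adjusted p = 0.0745). The difference of 0.48 between 35S::pBVR3 and No-0 WT did not pass (adjusted p = 0.0995 in limma).

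The calls against wild type included CMLs, IQDs and a channel. In CAB3::pBVR2, CML30 was lower, with a log2 difference of -0.65 (adjusted p = 0.00917 in limma), as were iqd21 with -1.61 (adjusted p = 0.00229) and GLR3.3 with -0.78 (adjusted p = 0.0151). IQD28 was higher by 0.67 (adjusted p = 0.00573 in limma) and CML43 by 0.72 (adjusted p = 0.0282). CML41 was lower, with -2.15 (adjusted p = 0.0482 in limma), with only 1 of 3 CAB3::pBVR2 arrays above background and wild-type arrays of 330.4, 71.4 and 138.9. Over the alternatives tried, in limma or with the plain test of the 2 lines, the adjusted p ranged from 0.015 to 0.146 for CML41. It ranged from 0.0145 to 0.1 for CML43 and from 0.00309 to 0.0766 for GLR3.3, with 0.0766 from the plain test. The call of CML41 was lost without replicate 1 or 3 of No-0 WT (adjusted p = 0.146 and 0.093 in limma) and without replicate 1 of 35S::pBVR3 (0.0577). It was also lost without any of the CAB3::pBVR2 arrays (0.0563, 0.125 and 0.112 in limma). With all arrays in use, it was lost without the shift (0.0582 in limma), without the filter (0.107) and with the plain test of the 2 lines (0.108). The call of CML43 was lost in 7 of 17 alternatives. Among them were the fits without replicate 1 or 2 of No-0 WT (0.0735 and 0.1 in limma) and without any of the CAB3::pBVR2 arrays (0.0772, 0.0536 and 0.0596). That of GLR3.3 was lost without replicate 3 of No-0 WT (0.0523 in limma) or replicate 1 of CAB3::pBVR2 (0.0521), and with the plain test (0.0766). The CMLs CML23, CML37, CML38 and CML42 did not pass in any contrast, with CML37 above background on only 2 of 9 arrays.

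**Figure D4:**
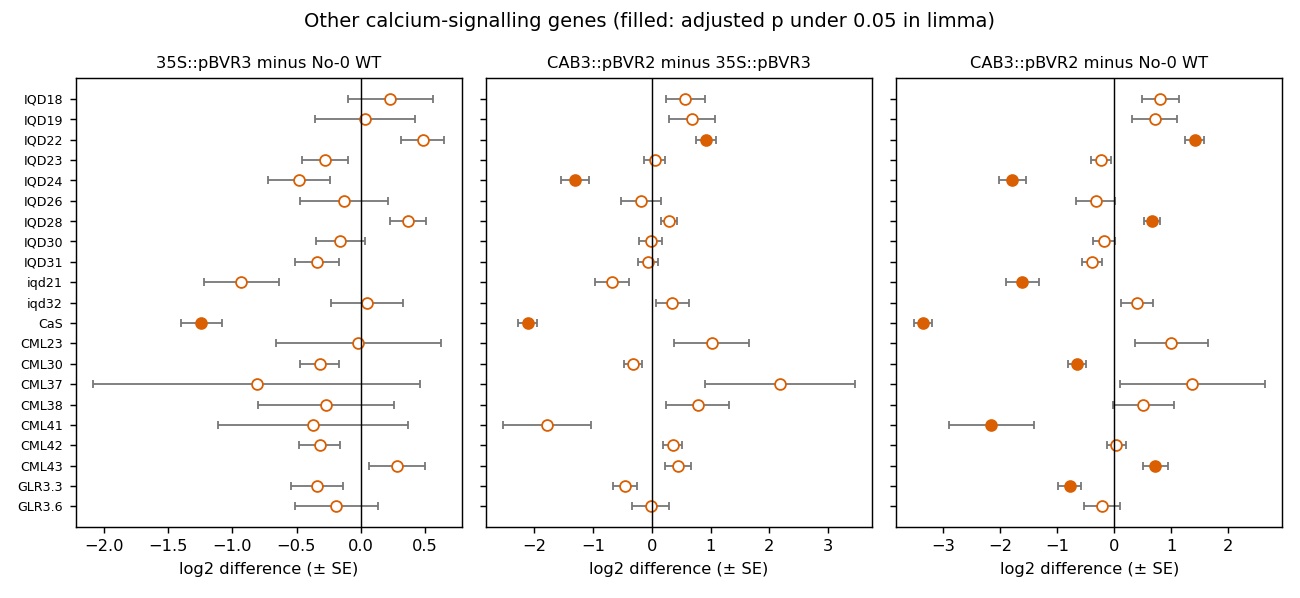
Log2 differences ± SE of 21 other calcium-signalling genes in the 3 contrasts, with filled points for an adjusted p under 0.05 in limma, and horizontal scales that differ between panels. IQD22 is filled on the right of 0 in both panels that hold CAB3::pBVR2, and CaS, which is also in the study's list, is filled on the left in all panels.

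The genes whose profile over the 9 arrays was most like that of each CIPK were also sought, as a description, since the arrays share the 3 lines and any gene with the same order of lines correlates. For CIPK20 they were LHCA1, a light-harvesting protein of photosystem I (Pearson r = 0.997, n = 9), FNR2, a ferredoxin-NADP reductase of the chloroplast (0.995), AT2G29300 (0.993), LIP2, a lipoyltransferase (0.993), and PnsL1, a subunit of the chloroplast NDH complex (0.991). All 5 are in the study's list. Probe sets without a name in the platform table could enter this search only through that list, so membership in it is partly set by the naming. FNR2 was 4608 ± 62.6 (SD, n = 3), 2540.1 ± 601 and 337 ± 74.3 in wild type, 35S::pBVR3 and CAB3::pBVR2, with log2 differences of -0.89 and -2.91 for the steps from wild type to 35S::pBVR3 and on to CAB3::pBVR2. LHCA1 differed by less, with of -0.59 and -1.33 for the same steps. Of 8726 named probe sets, 383 (4.39%) had an r over 0.95 with CIPK20.

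For CIPK17 the 5 most alike were AT2G17990 (r = 0.986, n = 9), AT4G17470 (0.985), AT3G53670 (0.985), AT1G07870 (0.983) and AT1G64370 (0.982), and 80 probe sets (0.917%) had an r over 0.95. Of these 5, only AT4G17470 is in the study's list, and its wild-type signal of 3.35 ± 0.886 (SD, n = 3) lay under the background. AT1G64370 was 1043 ± 250.2 (SD, n = 3), 1859.6 ± 417 and 3242 ± 236 in wild type, 35S::pBVR3 and CAB3::pBVR2. Its steps were 0.84 and 0.83 on the log2 scale, about even, as for CIPK17.

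For CIPK5 the 5 most alike were AT3G04350 (r = 0.986, n = 9), AT3G11690 (0.974), AT4G24880 (0.973), AT4G35510 (0.973) and AT3G57780 (0.965), none of them in the study's list, and 23 probe sets (0.264%) had an r over 0.95. AT3G11690 shared the spread of CIPK5 in CAB3::pBVR2, with 165 ± 31.5 (SD, n = 3), 269.7 ± 43.2 and 507 ± 211 in the 3 lines. Between the CIPK genes themselves, r over the 9 arrays was -0.913 for CIPK20 with CIPK17, -0.898 for CIPK20 with CIPK5 and 0.835 for CIPK17 with CIPK5. No gene was among the first 5 of more than 1 CIPK.

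**Figure D5:**
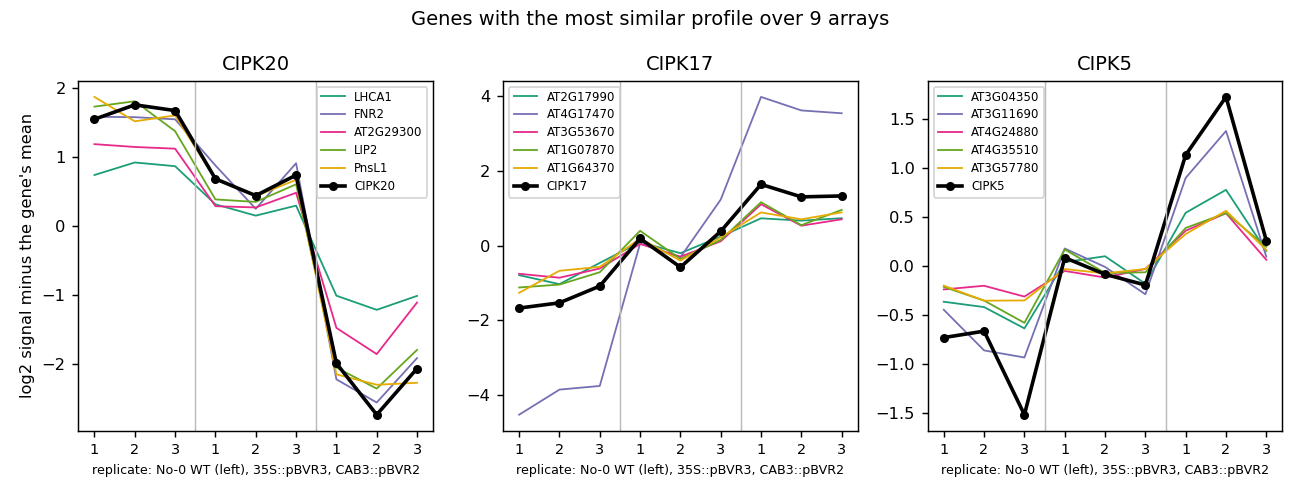
Log2 signal minus each gene's own mean, by array, for each CIPK gene (black) and the 5 named genes most correlated with it (coloured), with replicates 1 to 3 of wild type, 35S::pBVR3 and CAB3::pBVR2 from left to right. In the CIPK5 panel, replicate 3 of CAB3::pBVR2 is lower than replicates 1 and 2 in all 6 genes.

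The tissue markers measured here bear on the samples as wholes. RCA, which encodes Rubisco activase of the mesophyll chloroplast, was the only independently named gene of 12 mesophyll markers. It was 21674 ± 1177 (SD, n = 3) in wild type, 15253 ± 4072 in 35S::pBVR3 and 7590 ± 821 in CAB3::pBVR2, with a log2 difference of -0.98 ± 0.20 (SE) between the transgenic lines (adjusted p = 0.0156 in limma). Its lines stood in the same order as those of CIPK20, and its part in the differences of CIPK20 was not tested. FAMA, a guard cell factor, was the only named gene of 7 guard cell and epidermis markers and was lower in CAB3::pBVR2 than in No-0 WT, with -1.79 ± 0.35 (adjusted p = 0.00386 in limma). Of 7 root markers 3 were named, PYK10, EXPA7 and PRX57, and 0 passed in any contrast by limma's adjusted p or at an unadjusted p under 0.05. TUA1, the only named gene of 6 pollen markers, was 1073 ± 31.8, 1230 ± 151 and 1148 ± 289, so this tubulin gene had signal in whole seedlings and did not pass in any contrast. The only vascular marker with a name was SULTR2;1, a sulfate transporter in the study's list, at 537 ± 122, 760.1 ± 73.0 and 210.3 ± 21.9.

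HY5, a transcription factor that promotes development in light and stands in the study's list, was 174 ± 19.2 (SD, n = 3) in wild type, 184 ± 49.7 in 35S::pBVR3 and 409.8 ± 123 in CAB3::pBVR2. Its arrays overlapped between No-0 WT and 35S::pBVR3, where the log2 difference was 0.05 ± 0.25 (SE) and that of CIPK20 was -1.04 ± 0.21. Between the transgenic lines HY5 was higher by 1.15 ± 0.25 and CIPK20 was lower. On the chromosome, CIPK20 stands between CIPK19 and DOG1, CIPK17 between NPSN12 and GCR1, and CIPK5 between AT5G10920 and ASG2. Of these, AT5G10920 alone has a probe set named here. It was 642 ± 137, 465 ± 98.0 and 399.7 ± 49.2 in the 3 lines, lower in CAB3::pBVR2 than in No-0 WT with a log2 difference of -0.67 (adjusted p = 0.0349 in limma), whereas its neighbour CIPK5 was higher.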

How the data were processed

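RNA abundance came from 9 Affymetrix ATH1 arrays, 3 for each of 3 lines, with 1 array per labelled RNA sample. The values deposited by the authors are MAS5 intensities on a linear scale, 1 per probe set. The sources read here name no MAS5 version or settings. The values show no log and hold no detection calls. From them, 64 control probe sets were left out of the tests, 3 values of 0 were set to 0.1, and each array was shifted on the log2 scale by its 75th percentile, as in the study's methods. Of 22746 probe sets, those at or above the array's own 40th percentile on at least 1 array were kept (15436). Before the shift, array medians ran from 139.4 to 184.3. The small number of arrays limits the precision.

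Differences were fitted with limma 3.58.1 in R 4.3.3 on all 9 arrays (lmFit and eBayes), with Benjamini-Hochberg adjustment of p-values across the 15436 probe sets and a threshold of 0.05. The fit was also run on simulated arrays with independent noise. That setting leaves out any sharing between arrays of the same replicate number, so it does not bear on it. The methods describe the replicates as independent, and the labels do not say what a replicate number shares. Deviations from the line means correlated by 0.207 to 0.391 in all 9 pairs of arrays with the same number. In the 18 pairs with different numbers they correlated by -0.263 to -0.0507. Deviations within a line cancel out, so these negative values follow from the positive ones and are not separate evidence. The numbers were taken to pair the arrays, on the values alone. The main fit nevertheless held no replicate term, so its SEs and adjusted p-values are unpaired. The pairing entered only as the replicate block among the alternatives.

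Probe sets were named through a platform table matched to RefSeq genes (assembly TAIR10.1), which gave 1 gene for 13436 of them, and 503 had several genes and were not used by name. The study's list gave names for 347 more. These were used for single genes, the kinases of that list, the number of named genes and the search for similar profiles. They entered no count of calls over a gene list. The authors' fold changes in that list were not used. The members and gene lists were chosen with earlier results of these data known. Genes named were the 3 CIPK genes, up to 4 called genes of each list by their difference between the transgenic lines, the 5 most correlated genes per CIPK, chromosome neighbours, and HY5, SNRK2.5 and UBC21. ABI2, CPK32, SULTR2;1, the CRK genes and the tissue markers were named beyond that rule, after their values had been seen. Alternatives were no shift, quantile normalization, no filter, a stricter filter, an added offset, the replicate block, fits of 2 lines only and each array left out. No sequences were used here.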

Additional observations from a re-analysis of the deposited data

How the results depend on the processing

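The 9 differences of the 3 CIPK genes were recomputed under 16 alternatives each. The filters, replicate block, fits of 2 lines and arrays left out of the third line cannot change a difference, so they do not test it. None of the 144 values changed direction, and 3 moved by at least the SD within lines, all with an offset of 32. There CIPK20 differed by -2.49 between the transgenic lines, and between CAB3::pBVR2 and No-0 WT CIPK20 differed by -3.49 and CIPK17 by 2.42. Leaving out each array in turn gave -3.02 to -2.65 for CIPK20, 1.14 to 1.62 for CIPK17 and 0.76 to 1.5 for CIPK5 between the transgenic lines, -1.1 to -0.95, 1.24 to 1.72 and 0.63 to 1.06 between 35S::pBVR3 and No-0 WT, and -4.06 to -3.69, 2.73 to 3.03 and 1.67 to 2.4 between CAB3::pBVR2 and No-0 WT. Without the shift the median of all probe sets became 0.11, 0.04 and 0.17 in these 3 contrasts, and the CIPK differences moved with it (CIPK20 to -2.8, CIPK17 to 1.51 and CIPK5 to 1.19 between the transgenic lines). With the replicate block the SE of CIPK5 was 0.24. Each CIPK has only 1 probe set to try. By Spearman's rho, 0 of the 5 most alike genes of each CIPK were the 5 by Pearson's r, with 27, 23 and 21 genes tied at or above the fifth place for CIPK20, CIPK17 and CIPK5.

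Counts over all probe sets moved more with the setting, and the cause was not tested. Between CAB3::pBVR2 and 35S::pBVR3, 268 probe sets were higher and 1033 lower. Without the filter these were 76 and 619, with the plain test of the 2 lines 54 and 373, with the replicate block 637 higher, and with arrays of the 2 lines only 156 higher. Without the shift 393 were higher and 834 lower, so that 32% of the calls were higher, against 20.6% with it. The share went from 44.5% to 57.5% between 35S::pBVR3 and No-0 WT and from 45.4% to 58.4% between CAB3::pBVR2 and No-0 WT. Leaving out an array gave 103 to 239 higher and 658 to 927 lower. The first count moved by over 1.5 times without replicate 2 of No-0 WT, any 35S::pBVR3 array or replicates 1 or 2 of CAB3::pBVR2, the second without replicate 1 of 35S::pBVR3. Between 35S::pBVR3 and No-0 WT, 656 were higher and 817 lower, against 168 and 125 without the filter, 34 and 46 with the plain test, 1167 and 1323 with the replicate block, and 195 to 607 and 114 to 736 with an array left out. Leaving out any 1 of the 6 arrays of this contrast moved both counts by over 1.5 times. Between CAB3::pBVR2 and No-0 WT, 2585 were higher, against 1464 with the plain test.

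Of the 21 calcium genes, a list added after seeing the data, the plain test called 0 higher and 1 lower between the transgenic lines. Between 35S::pBVR3 and No-0 WT the replicate block called 1 higher and 2 lower, quantile normalization and the stricter filter 2 lower each, and the plain test 0 lower. The replicate block ended no call of the named calcium genes. A first list with 3 calmodulin-like genes had 0 calls under limma, 0 at an unadjusted p under 0.05, and 0 under 17 alternatives.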
